A study of Mus musculus with 6 samples.

Results

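Complement genes were described in the livers of mice given JT003, a peptide agonist of both adiponectin receptors. The set holds 34 listed components, receptors and regulators of complement, and the rows of all 34 were found by symbol among the 18387 genes with at least 1 read in at least 1 library. By their main known source, 23 members were taken as hepatocyte-made, 7 as myeloid (C1qa, C1qb, C1qc, C3ar1, C5ar1, Cfp and Fcna) and 4 as of other source (Cfd, Cd55, Cd59a and Cr1l). Whole-liver RNA was sequenced in 6 libraries, 1 per condition, all from male C57BL/6 mice (C57BL/6J in the methods) with an age of 6 to 8 weeks in the labels.

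In the diet model, CD was the chow control, HFD the mice labelled as having NASH (nonalcoholic steatohepatitis), and JT003-HFD the NASH mice after JT003. The methods give 16 weeks of high-fat diet against a standard diet, and JT003 for 4 weeks. A further NASH diet of the methods, which ends with a methionine- and choline-deficient diet, is described apart from the sequenced HFD mice. In the CCl4 model, Oil was the corn oil control, CCl4 the mice made fibrotic with carbon tetrachloride, and JT003-Fibrosis the CCl4 mice that also received JT003. Injections were given every 3 days for 6 weeks, and JT003 was given for 3 weeks at 0.5 mg per kg. The sources do not say whether the labelled age is that at the start or at sampling. If it is the former, the 16 weeks of diet and 6 weeks of injections make the models differ in age at sampling. The study had 6 mice per group, but the sources do not say whether a library holds 1 mouse or a pool. CCl4 is a toxin that hepatocytes activate themselves, so the model injures the cells that make most complement proteins.

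Complement is a chain of plasma proteins that marks surfaces for uptake, releases small attractant peptides and can assemble a pore in membranes. It is started by C1q on bound antibody (classical pathway), by mannose-binding lectins and ficolins on sugars (lectin pathway), or by slow turnover of C3 itself (alternative pathway). Hepatocytes are the main source of the circulating components, whereas C1q, properdin and the receptors of the released peptides C3a and C5a come mainly from macrophages and other myeloid cells.

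The 3 C1q chains lay next to each other in gene order, C1qb, C1qc and C1qa, with no other protein-coding gene between them in the RefSeq annotation of GRCm38.p6. Cfb and C2, C8b and C8a, and C1ra and C1s1 were likewise direct neighbours. Since 6 of the 8 members called below were myeloid, 3 of their promoters are shown. These 3 are the only ones among 6 myeloid windows that hold the letters marked below, so they do not represent that group. Each is the stretch of 250 bases directly upstream of the RefSeq transcript start in GRCm38.p6, printed 5′ to 3′ on the gene's own strand, with matches to GAGGAA (either strand, so also TTCCTC), a core of sites for the myeloid factor PU.1, in capitals. C1qb lies at chr4:136886201-136886450, C1qc at chr4:136892915-136893164 and Fcna at chr2:25627975-25628224, each on the minus strand.
C1qb: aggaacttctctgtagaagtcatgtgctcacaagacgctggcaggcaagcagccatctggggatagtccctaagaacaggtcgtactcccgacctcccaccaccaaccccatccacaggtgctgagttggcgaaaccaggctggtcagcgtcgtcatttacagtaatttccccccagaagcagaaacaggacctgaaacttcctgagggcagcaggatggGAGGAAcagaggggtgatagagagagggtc
C1qc: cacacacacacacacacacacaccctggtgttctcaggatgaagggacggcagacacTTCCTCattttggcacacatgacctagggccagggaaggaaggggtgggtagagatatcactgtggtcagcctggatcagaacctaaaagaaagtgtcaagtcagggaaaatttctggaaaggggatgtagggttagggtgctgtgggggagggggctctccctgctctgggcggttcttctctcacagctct
Fcna: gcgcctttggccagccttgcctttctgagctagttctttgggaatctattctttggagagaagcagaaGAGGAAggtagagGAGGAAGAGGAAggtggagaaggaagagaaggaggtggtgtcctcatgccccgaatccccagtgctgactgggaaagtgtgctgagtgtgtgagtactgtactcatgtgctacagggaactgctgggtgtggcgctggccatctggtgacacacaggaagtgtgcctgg

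The first base of the match lay at position -30 in C1qb and -193 in C1qc, counted from the transcript start, and Fcna held 3 matches, at -182, -169 and -163. Promoter windows were found for 25 of the 34 members. The letters GAGGAA occurred in 3 of 6 myeloid windows, in 0 of 17 hepatocyte windows and in 1 of 4 of the others (Cd59a), beside 23.3% of all 32851 windows. A pattern that STAT factors bind, TTCNNNGAA on either strand, occurred in 2 of 17 hepatocyte windows (C8a and Masp2) and in 7.02% of all windows. These matches describe letters in short windows and not bound sites.

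Depth was alike, with 19374255 to 20184560 rounded expected counts (the authors' estimated reads per gene) per library. A log2 ratio is taken between 2 libraries after TMM scaling (a scaling by the bulk of genes) with 2 counts added, and its 95% Clopper-Pearson interval covers counting error only. A gene is called where an exact binomial test of both read counts gave an adjusted p-value under 0.001 and the log2 ratio was at least 1 in size. Such a call compares 2 libraries and not conditions, since the spread between mice could not be estimated. The tissue label held: 9 hepatocyte markers took 9.22% to 12.1% of the reads. One control stood apart. In Oil, 11 of 12 macrophage markers were lower than in CD (median log2 ratio -1.97), their summed level was 167 CPM (counts scaled to a common depth over all 6 libraries) against 238 to 560 in the other 5 libraries, and all 7 myeloid members were lower than in CD (median -1.11). Ratios of the CCl4 library are therefore also given against CD, which belongs to the longer diet model and so may differ in age. They are also given with a deposited column of CCl4 counts. This column sums to 2.97 times the CCl4 library and lies at or above it in nearly every gene. Its values look like a sum of that library and others, and it is called the pooled counts here, although the file names no libraries.

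Most members differed by less than 2-fold in each comparison. The 34 members took 1.72% (Oil) to 2.54% (CCl4) of all reads. In at least one of the 4 comparisons 8 members were called (C1qa, C1qb, C1qc, C4a, Fcna, Cfd, C3ar1 and C5ar1), and 26 in none. The share of all genes called in any of the 4 was not counted, so 8 of 34 cannot be judged as few or many. In CCl4, 5 of the 8 were higher than in Oil, and all 5 were myeloid. Between CD and HFD the calls were C4a and Cfd, and with JT003 they were Cfd in the diet model and C4a in the CCl4 model.

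**Figure D1:**
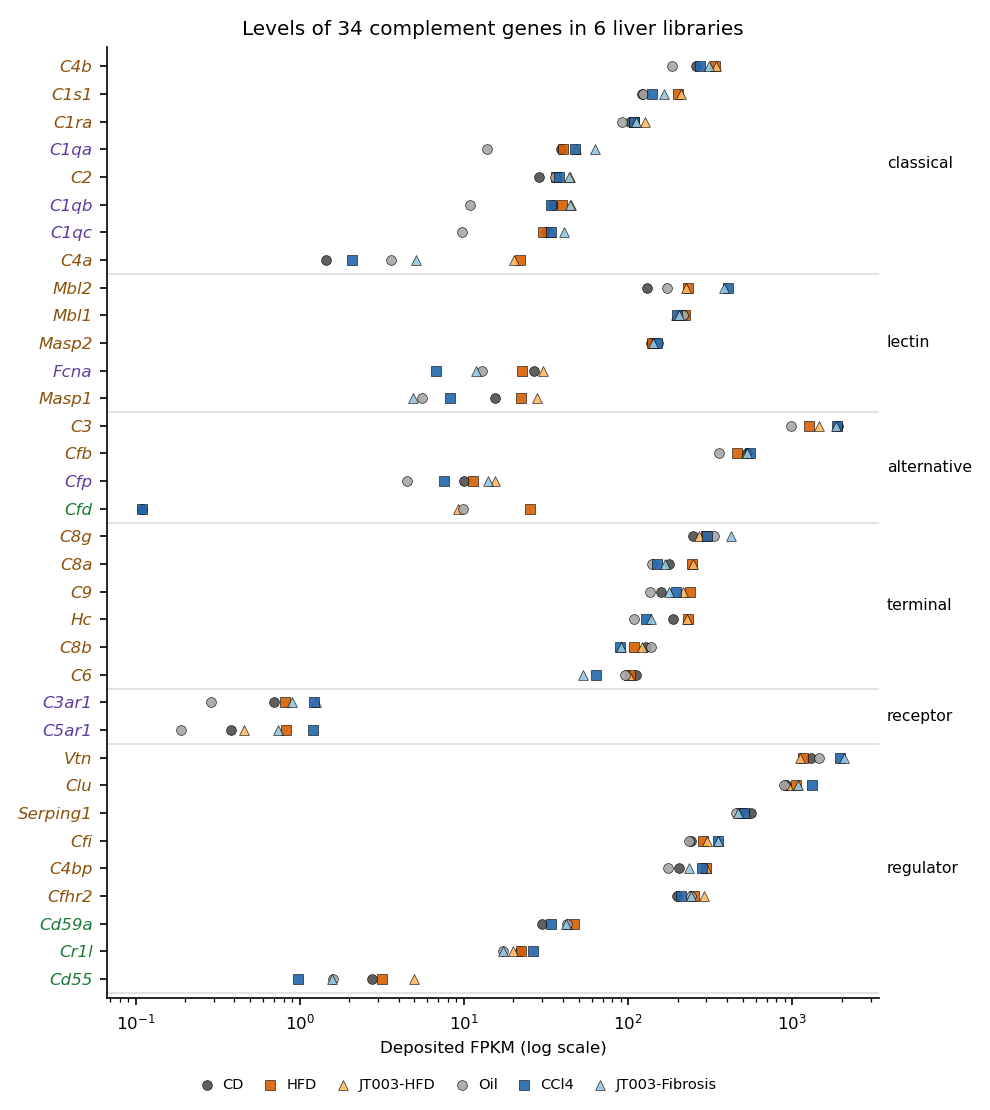
Deposited FPKM (log axis) of the 34 members in each of the 6 libraries, ordered by role and by mean level, with names coloured brown for hepatocyte-made, purple for myeloid and green for other source. C3, Vtn and Clu reach the highest levels, both receptors stay at or below 1.26 FPKM, and Cfd, at 0 in JT003-Fibrosis and so without a point there, spans from 0.11 to 25.4 FPKM in the other libraries.

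**Figure D2:**
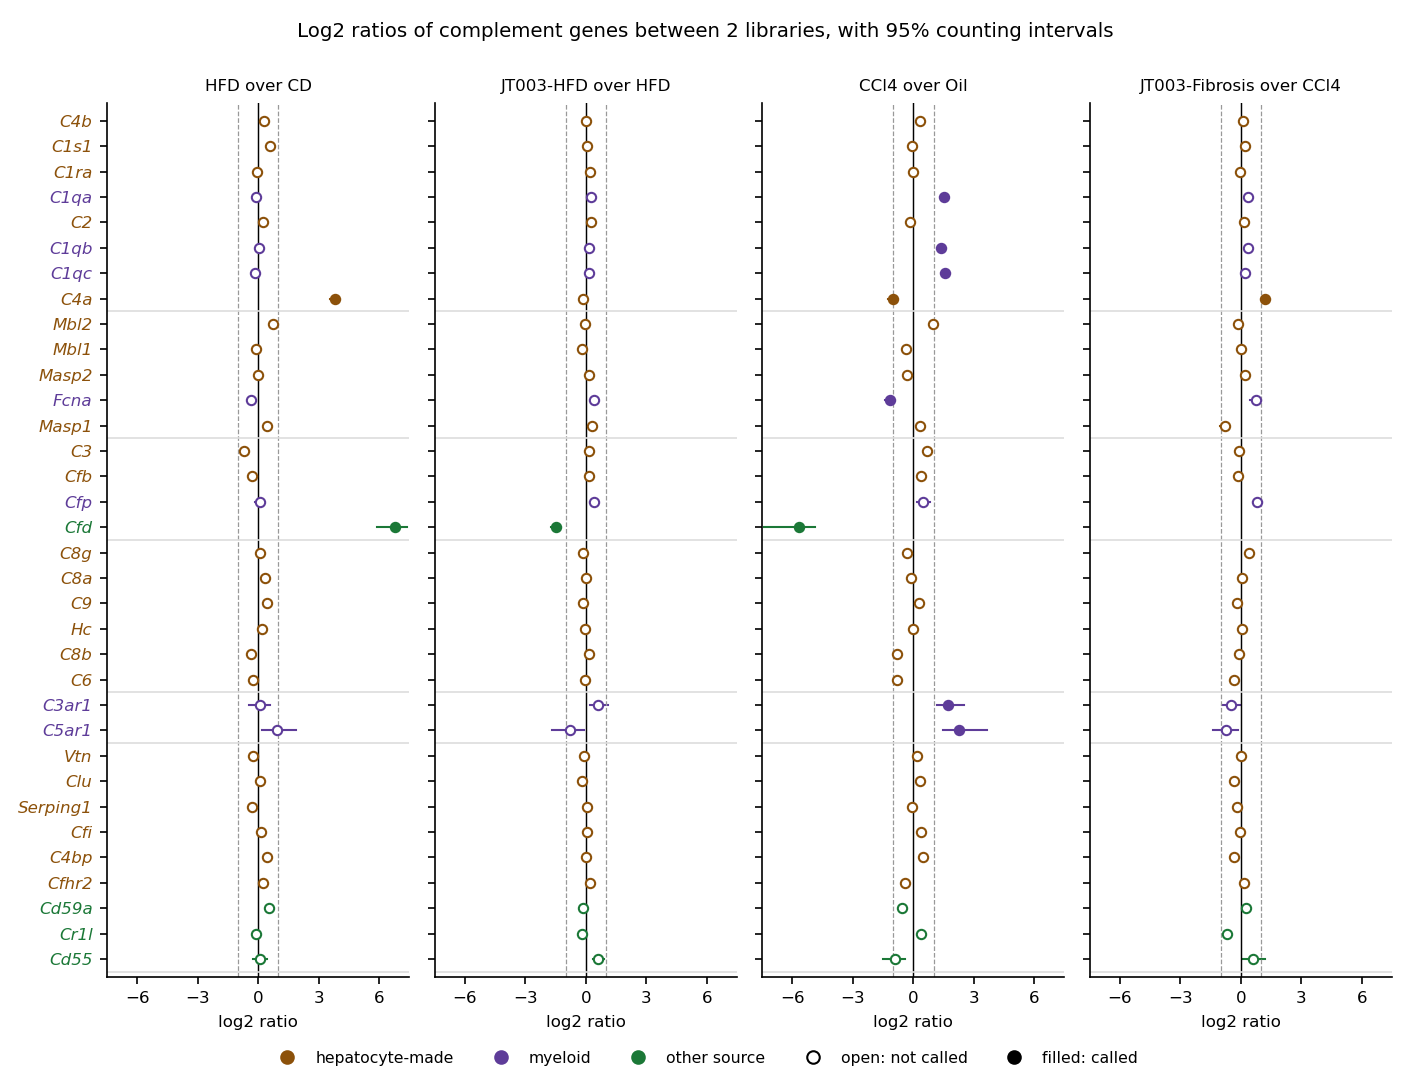
Log2 ratio of each member between the 2 libraries named above each panel, with 95% counting intervals (limits beyond the axis are clipped) and dashed lines at the threshold of 1. Filled points are called. Cfd is left out of the last panel, where its counts are 0 and 2. The 5 filled purple points on the right of the CCl4 panel are C1qa, C1qb, C1qc, C3ar1 and C5ar1.

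The diet was set against chow first. Between CD and HFD, 2 of 34 members were called higher, beside 2.92% of all 16972 genes tested, and 0 were called lower, beside 2.46%. The median log2 ratio was 0.09 over all members, 0.12 over the 23 hepatocyte-made and 0.06 over the 7 myeloid members, against 0.00 over all genes. Most hepatocyte-made members are abundant, and genes with at least 1000 counts in either library had a median of -0.12. Without the threshold on size, 15 members passed higher and 7 lower, so that differences below 2-fold exceeded counting error in most members. The share of all genes that passed at this cut was not counted. Small differences pass at high counts, so these numbers are not a result about the members. With JT003 in the diet model, 0 of 34 members were called higher, beside 0.743% of 17093 genes, and 1 was called lower, beside 0.883%. The medians were 0.06 for all members, 0.02 for the hepatocyte-made and 0.25 for the myeloid, and 0.02 for genes with at least 1000 counts.

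In the CCl4 model, 5 of 34 members were called higher than in Oil, beside 4.76% of 17236 genes, and 3 lower, beside 2.41%. The median was 1.52 over the 7 myeloid members and 0.01 over the 23 hepatocyte-made. It was 0.00 over all genes and over those with at least 1000 counts. With JT003, 1 of 34 was called higher than in CCl4, beside 1.91% of 17393 genes, and 0 were called lower, beside 2.5%. At the adjusted p-value alone 12 were higher and 11 lower, again without a share of all genes at that cut. The medians were 0.00 for all members, -0.02 for the hepatocyte-made and 0.33 for the myeloid, and -0.11 for genes with at least 1000 counts. In each model the comparison with JT003 shares its model library with the comparison of model and control, so a chance high or low value in that library turns up in both with opposite sign.

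In the classical pathway, C1q is the recognition molecule, built of equal numbers of A, B and C chains. C1qa had 846 counts in CD, 843 in HFD, 1020 in JT003-HFD, 289 in Oil, 1017 in CCl4 and 1294 in JT003-Fibrosis. C1qb had 741, 822, 936, 221, 712 and 904 counts in the same order of libraries, and C1qc 667, 632, 709, 198, 721 and 832. For each chain the Oil library was the single low one, and the next lowest had 843, 712 and 632 counts. The chains kept close proportions, C1qa taking 36.7% to 42.7% of their joint counts, C1qb 29.1% to 35.8% and C1qc 26.6% to 29.6%.

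All 3 chains were called higher in CCl4 than in Oil, with log2 ratios of 1.52 (95% interval 1.34 to 1.72) for C1qa, 1.39 (1.18 to 1.62) for C1qb and 1.57 (1.35 to 1.81) for C1qc. With the pooled CCl4 counts less the CCl4 library they were 2.18, 2.18 and 2.19. Against CD the CCl4 library gave 0.12, -0.20 and -0.03, so that the call ended and 2 chains changed sign. The pooled counts less the CCl4 library were above CD by 0.75 (0.64 to 0.86), 0.55 (0.43 to 0.67) and 0.56 (0.44 to 0.69), short of the threshold. The size of the difference thus depended on both the control and the CCl4 counts chosen. With an assumed coefficient of variation between mice of 0.2 or 0.4, edgeR's exact test called none of the 5 myeloid members higher in CCl4 than in Oil, C1q and both receptors included. HFD differed from CD by -0.17 to 0.06, JT003-HFD from HFD by 0.14 to 0.25, and JT003-Fibrosis from CCl4 by 0.20 to 0.34, none of them called. Over the pooled CCl4 counts less the CCl4 library, JT003-Fibrosis was at -0.46 to -0.33.

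Most macrophage markers moved with C1q in CCl4 over Oil, but not in CCl4 over CD. In the latter pair the 12 macrophage markers had a median of -0.93, and the C1q chains lay between -0.20 and 0.12. The 8 markers of recruited macrophages had a median of 2.21 in that pair, against 0.01 over all genes. The low median of the 12 macrophage markers depended on the CCl4 counts chosen. It was -0.01 for the pooled counts less the CCl4 library over CD, with 6 markers above 0 and 6 not. The C1q chains were then at 0.55 to 0.75. Between Oil and CCl4, 7 of 12 macrophage markers were called higher and 1 lower (median 1.37), as were 6 of 8 markers of recruited macrophages (median 2.02), among them Gpnmb with 14 counts in Oil and 843 in CCl4. Among markers of resident Kupffer cells, Cd5l had 296 counts in Oil and 1108 in CCl4, Marco 41 and 161, and Vsig4 76 and 165, whereas Clec4f had 413 and 517, Timd4 19 and 18, and Cd163 81 and 75. All 6 had fewer counts in both libraries than in CD, where they had 1824, 295, 329, 1418, 110 and 365. Of all 12 macrophage markers, 3 (Cd68, Lyz2 and Fcgr1) had a ratio above 0 in CCl4 over CD and 9 did not. With the pooled counts less the CCl4 library over CD, Marco was at 1.52, the highest of the 12. Per count of the 12 macrophage markers there were 0.25 C1q counts in Oil, 0.49 in CCl4 and 0.35 in JT003-Fibrosis, and 0.23 to 0.28 in the diet model. No marker of either list was at 0 in any library. In whole liver, fewer cells of a type and less RNA per cell cannot be told apart, and the part of cell numbers in these differences was not tested.

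**Figure D3:**
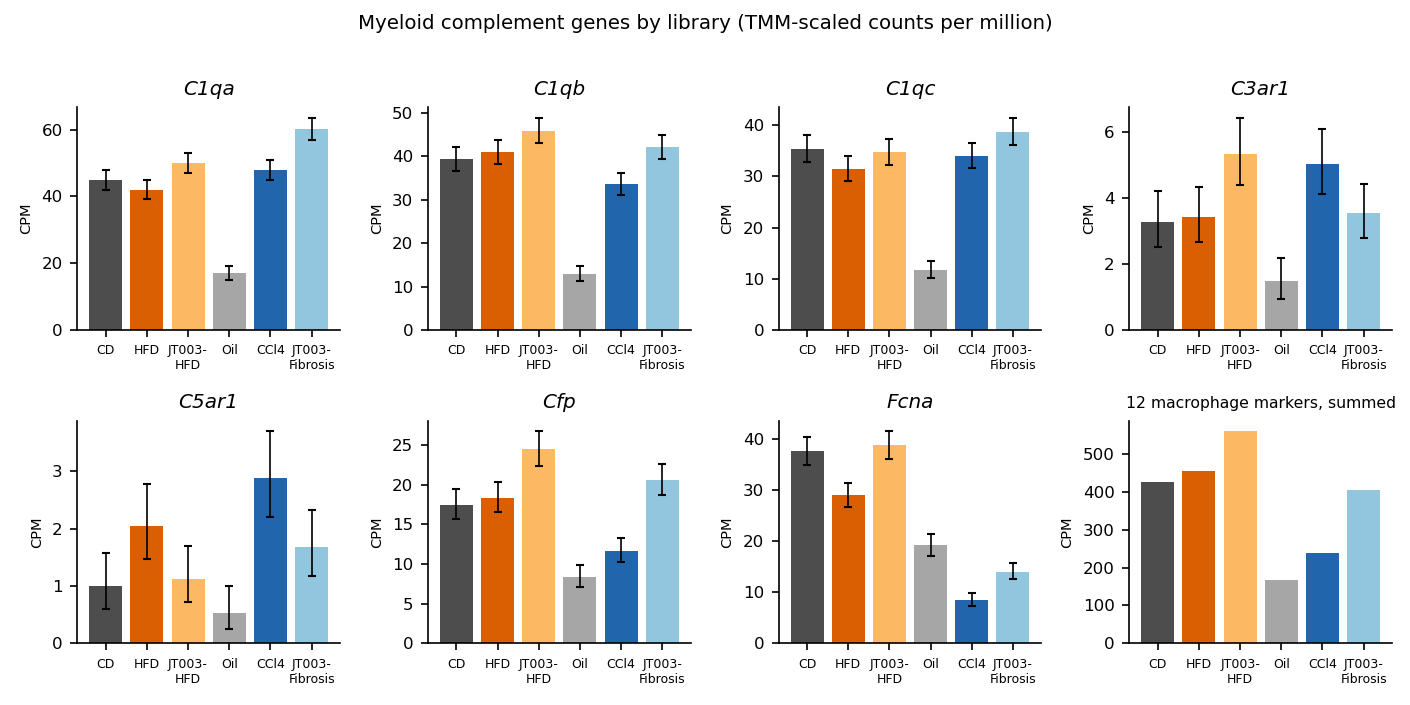
TMM-scaled CPM of the 7 myeloid members and the summed CPM of 12 macrophage markers in each library, 1 bar per library, with 95% Poisson intervals (counting error only) on the members. Oil has the lowest bar in every panel but that of Fcna, where CCl4 is lowest.

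The proteases and later components of the classical pathway are made by hepatocytes. C4b, which had the highest mean FPKM of this pathway, had 28647 counts in CD, 36817 in HFD, 37570 in JT003-HFD, 19963 in Oil, 30467 in CCl4 and 33395 in JT003-Fibrosis. Its log2 ratios were 0.27, 0.01, 0.32 and 0.12 in the 4 comparisons and -0.05 for CCl4 over CD, and Oil was again the lowest library. C1s1, a protease of the C1 complex, stood at 0.60 between CD and HFD, its partner C1ra at -0.04 and C2, the protease of the classical convertase, at 0.24. In the other 3 comparisons C1ra, C1s1 and C2 lay between -0.15 and 0.26.

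C4a differed far more than C4b. C4a is a near-identical relative of C4b, known as sex-limited protein because its expression depends on androgen in many mouse strains. It had 159 counts in CD, 2358 in HFD, 2187 in JT003-HFD, 380 in Oil, 228 in CCl4 and 538 in JT003-Fibrosis. Both diet libraries thus lay far above the other 4. HFD was 13.8-fold above CD (log2 ratio 3.78, 3.57 to 4.04), and JT003-HFD differed from HFD by -0.13 (-0.22 to -0.05).

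C4a took 0.552% (0.470 to 0.644, 95% Clopper-Pearson) of the joint counts of both C4 genes in CD and 6.02% (5.79 to 6.26) in HFD. In JT003-HFD the share was 5.50%, and in the CCl4 model it was 1.87% in Oil, 0.743% in CCl4 and 1.59% in JT003-Fibrosis. Reads that fit both genes were divided by estimation, so a small misassigned share of C4b would weigh heavily in C4a, and the C4a counts are uncertain for this reason.

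The C4a calls of the CCl4 model were unstable. The log2 ratio was -1.02 (-1.27 to -0.78) for CCl4 over Oil and 1.22 (1.00 to 1.46) for JT003-Fibrosis over CCl4. With the pooled counts less the CCl4 library the first became 0.46 and the second -0.26, against CD the first was 0.37, and Oil itself exceeded CD by 1.39. The sign of the first depended on the CCl4 counts and on the control, and that of the second on the CCl4 counts. The pooled counts less the CCl4 library were above CD by 1.82 (1.59 to 2.07).

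In the lectin pathway, Mbl2, a mannose-binding lectin made by hepatocytes, had the highest mean FPKM over the 6 libraries, although it lay below Mbl1 in CD and Oil. Its FPKM was 130 in CD, 232 in HFD, 226 in JT003-HFD, 173 in Oil, 406 in CCl4 and 381 in JT003-Fibrosis. Both CCl4-treated libraries were above the other 4. It fell just short of a call in CCl4 over Oil (0.99, 0.94 to 1.05), against CD the CCl4 library was at 1.501, and scaling to total reads gave 1.23. The pooled counts less the CCl4 library were at 0.58 over Oil and 1.06 over CD. Its relative Mbl1 showed -0.36 between Oil and CCl4 and 195.9 to 220.6 FPKM over all libraries.

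Fcna, ficolin A, is a soluble lectin of macrophages, and in CCl4 over Oil it was the one myeloid member that was lower. It had 710 counts in CD, 584 in HFD, 792 in JT003-HFD, 327 in Oil, 179 in CCl4 and 302 in JT003-Fibrosis. The 3 libraries of the CCl4 model were all below the 3 of the diet model, and CCl4 was the lowest. CCl4 over Oil was -1.15 (-1.43 to -0.89), called lower, and against CD it was -2.12. With the pooled counts less the CCl4 library the ratio was -0.53 to Oil and -1.53 to CD. With total reads CCl4 over Oil was -0.92, so that the call against Oil ended in both cases. JT003-Fibrosis over CCl4 was 0.74 (0.47 to 1.02), and 0.11 over the pooled counts less the CCl4 library. Fcna was also lower in Oil than in CD (-0.97) and not called between HFD and JT003-HFD (0.42), so that in those pairs it had the sign of most myeloid members.

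Masp1 and Masp2 are the proteases that mannose-binding lectins and ficolins carry. Masp1 had 862 counts in CD, 1222 in HFD, 1537 in JT003-HFD, 300 in Oil, 460 in CCl4 and 263 in JT003-Fibrosis, so that all 3 libraries of the diet model lay above all 3 of the CCl4 model. CCl4 over Oil was at 0.33 (0.12 to 0.54), and over CD it was at -1.05 (-1.22 to -0.88), past the threshold and of opposite sign. With the pooled counts less the CCl4 library, Masp1 was at 1.004 (0.83 to 1.19) over Oil, just past the threshold. Over CD it was then at -0.40 (-0.52 to -0.28), short of the threshold. With JT003 it was at 0.31 (0.20 to 0.42) in the diet model and at -0.81 (-1.04 to -0.60) in the CCl4 model. Over the pooled counts and over those less the CCl4 library the latter was -1.31 and -1.496, past the threshold. Masp2 stayed within -0.32 and 0.21 in all 4 comparisons.

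C3, the hub where all pathways meet, took 0.517% (Oil) to 0.993% (CD) of all reads by itself. Its FPKM was 1907 in CD, 1266 in HFD, 1446 in JT003-HFD, 989 in Oil, 1869 in CCl4 and 1834 in JT003-Fibrosis. Counting error was negligible here, and HFD was at -0.71 against CD, JT003-HFD at 0.18 against HFD, CCl4 at 0.68 against Oil and JT003-Fibrosis at -0.09 against CCl4. None of these was called, and the CCl4 library was at -0.17 against CD. Cfb, the factor B that forms the alternative convertase with C3b, had the same signs, at -0.33, 0.16, 0.39 and -0.12. Between Oil and CD, which both lack diet and CCl4, C3 differed by -0.85 and Cfb by -0.49.

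Cfd, factor D or adipsin, cleaves factor B and is known chiefly as a product of fat cells. It had 2 counts in CD, 454 in HFD, 166 in JT003-HFD, 175 in Oil, 2 in CCl4 and 0 in JT003-Fibrosis. The gene was thus plainly present in 3 libraries and at or under 2 counts in the other 3. Scaled counts were 213-fold higher in HFD than in CD (58.7 to 1765) and 107-fold higher in Oil than in CCl4 (29.1 to 889), wide intervals because the lower library held 2 counts. JT003-HFD was below HFD at -1.46 (-1.74 to -1.21), and no fold is given for JT003-Fibrosis, since it and CCl4 were both under 3 counts. The pooled counts less the CCl4 library held 17 counts.

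Of the 7 fat cell markers listed, 6 were found. The most restricted ones, Adipoq, Plin1 and Retn, had 11, 6 and 5 counts in Oil and at most 1 in every other library. In HFD, where Cfd was highest, they had 0, 1 and 1 counts, and all 3 were at 0 in JT003-HFD. Cidea, a lipid droplet gene of fat cells that fatty liver can also express, had 4 counts in CD, 386 in HFD, 18 in JT003-HFD and 9 in Oil. In the diet model Cfd and Cidea were both highest in HFD. Of Car3 and Lipe, which liver also expresses, Car3 followed Cfd in part and Lipe did not. Car3 had 2830 counts in CD, 39704 in HFD, 48771 in JT003-HFD, 9536 in Oil and 15312 in CCl4. Like Cfd it was higher in HFD and in Oil than in CD. Unlike Cfd it was highest in JT003-HFD and higher in CCl4 than in Oil. Lipe had 471 counts in CD, 342 in HFD and 391 in Oil. The part of fat tissue in the Cfd counts of Oil was not tested.

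**Figure D4:**
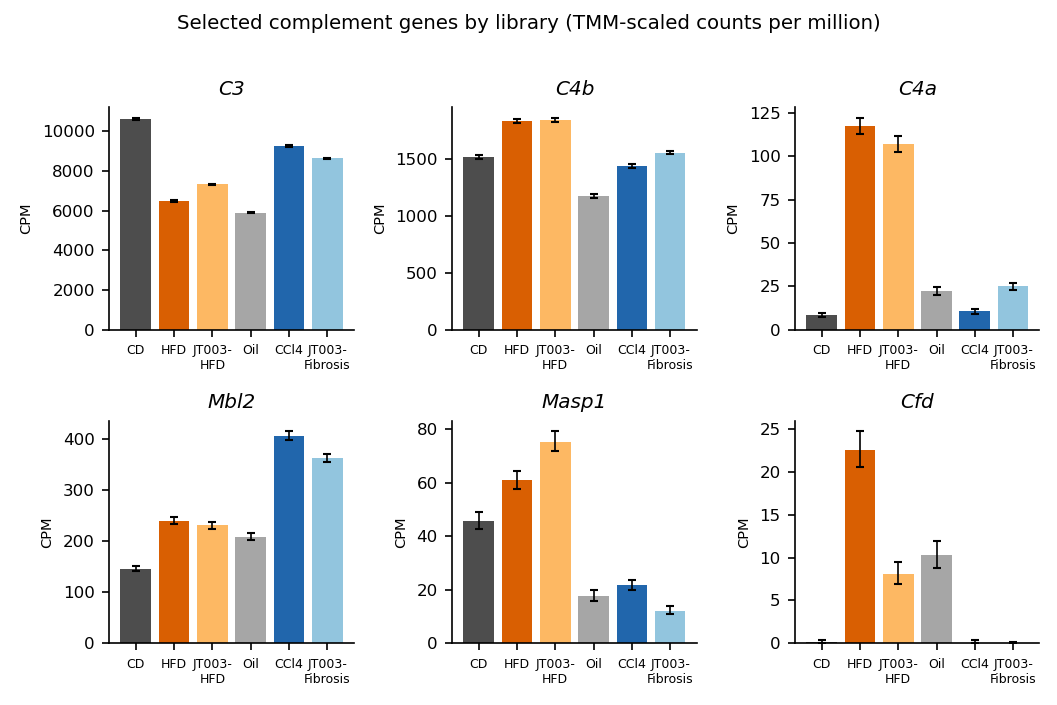
TMM-scaled CPM of C3, C4b, C4a, Mbl2, Masp1 and Cfd in each library, 1 bar per library, with 95% Poisson intervals (counting error only). C4a is high in both diet libraries, Mbl2 in both CCl4-treated libraries, and Cfd is near 0 in CD, CCl4 and JT003-Fibrosis.

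Properdin, encoded by Cfp, stabilises the alternative convertase and is made by myeloid cells. It had 330 counts in CD, 369 in HFD, 500 in JT003-HFD, 143 in Oil, 248 in CCl4 and 442 in JT003-Fibrosis. The highest library of each model was the one with JT003. CCl4 was at 0.50 over Oil and -0.55 over CD. The log2 ratios with JT003 were 0.41 (0.22 to 0.61) and 0.82 (0.60 to 1.05), not called, and over the pooled counts less the CCl4 library the latter was 0.09. In the same pairs the 12 macrophage markers had medians of 0.55 and 0.64.

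The terminal components build the membrane pore. C8g, the smallest chain of C8, had the highest FPKM, at 250.2 in CD, 296 in HFD, 269 in JT003-HFD, 332 in Oil, 302 in CCl4 and 424 in JT003-Fibrosis. C6 and C8b both stood at -0.82 in CCl4 over Oil, just short of a call, at -0.95 and -0.67 over CD, and at -0.93 and -0.82 with the pooled counts less the CCl4 library over Oil. C6 had 5404 counts in Oil, 3728 in CCl4 and 2962 in JT003-Fibrosis, against 5801 to 6530 in the diet model. Hc, which encodes C5, was at 0.01, C8a at -0.11, C9 at 0.29 and C8g at -0.31 in CCl4 over Oil, and over CD they were at -0.69, -0.40, 0.16 and 0.09. None of the 6 terminal genes was called in any of the 4 comparisons, and with JT003 in the diet model they lay between -0.14 and 0.14. The 3 chains of C8 thus had unlike ratios in CCl4 over Oil, while those of C1q were alike.

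The receptors of C3a and C5a, which draw and activate phagocytes, were near the bottom of the range per length, between 0.19 and 1.26 FPKM. C3ar1 had 62 counts in CD, 69 in HFD, 109 in JT003-HFD, 25 in Oil, 107 in CCl4 and 76 in JT003-Fibrosis. C5ar1 had 19, 41, 23, 9, 61 and 36 counts in the same order. Oil was the lowest library for both. Both were called higher in CCl4 than in Oil, at 1.74 (1.17 to 2.50) for C3ar1 and 2.26 (1.45 to 3.67) for C5ar1.

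Against CD the CCl4 library was at 0.63 (0.18 to 1.12) for C3ar1 and at 1.45 (0.78 to 2.37) for C5ar1. C5ar1 was thus the one of the 5 members higher in CCl4 that kept a ratio past the threshold against either control with the CCl4 library, and with the pooled counts less that library the ratios to CD were 1.38 for C3ar1 and 2.12 for C5ar1. JT003-Fibrosis was below CCl4 at -0.49 (-0.95 to -0.07) and -0.74 (-1.41 to -0.15), not called, and at -1.28 and -1.43 over the pooled counts less the CCl4 library, past the threshold. In the diet model JT003 went with 0.62 (0.19 to 1.09) for C3ar1 and -0.80 (-1.66 to -0.09) for C5ar1, opposite signs at counts where the intervals were wide.

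The regulators restrain complement in plasma and on cell surfaces, and none of the 9 was called in any of the 4 comparisons. Vtn, vitronectin, which blocks the insertion of the pore, had the highest FPKM, at 1297 in CD, 1158 in HFD, 1115 in JT003-HFD, 1450 in Oil, 1963 in CCl4 and 2069 in JT003-Fibrosis. It lay above C3 in Oil, CCl4 and JT003-Fibrosis and below it in CD, HFD and JT003-HFD. Clu, clusterin, was at 0.33 in CCl4 over Oil and -0.34 with JT003, and C4bp, which binds C4b, at 0.45 and -0.33. Both kept these signs with the pooled counts less the CCl4 library, and over CD the CCl4 library was at 0.38 and 0.31.

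Serping1, the C1 inhibitor, Cfi, the protease that cuts C3b and C4b, and Cfhr2, a relative of factor H, ranged from -0.43 to 0.36 over the 4 comparisons. On cell surfaces, Cd55 had 142 counts in CD, 161 in HFD, 253 in JT003-HFD, 79 in Oil, 50 in CCl4 and 78 in JT003-Fibrosis. Its ratio of -0.92 in CCl4 over Oil was -1.61 (-2.14 to -1.17) over CD, past the threshold, and with the pooled counts less the CCl4 library it was 0.39 over Oil and -0.33 over CD. Cd59a, a blocker of the pore, was at 0.51 in HFD over CD and -0.56 in CCl4 over Oil (0.04 over CD), and Cr1l, or Crry, at -0.68 in JT003-Fibrosis over CCl4. Cd55, Cd59a, C1ra, C1s1 and Cfhr2 have close relatives in the mouse genome, which makes the division of shared reads uncertain.

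**Figure D5:**
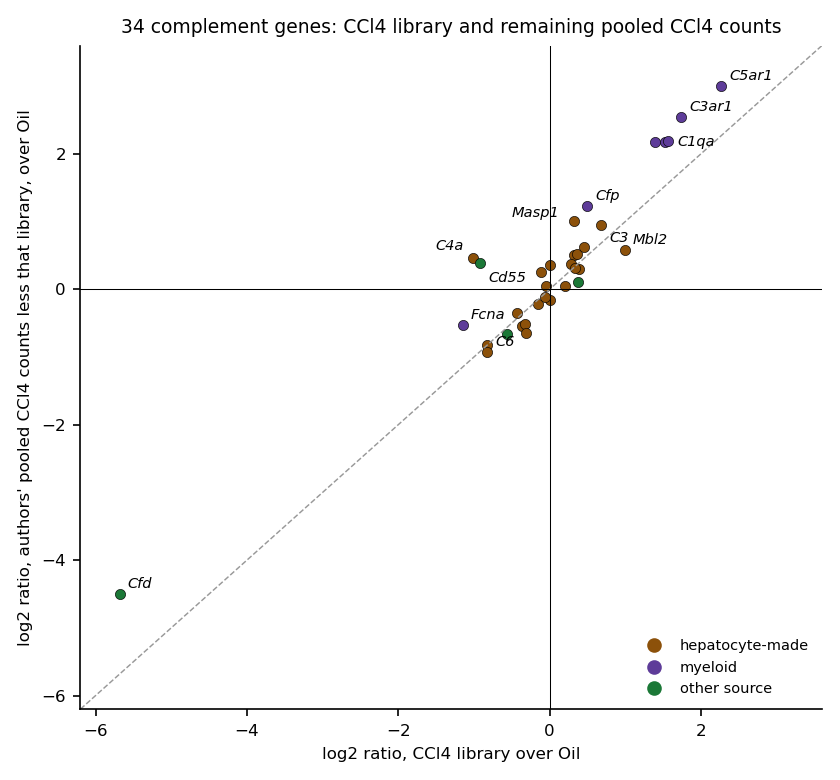
Log2 ratio over Oil of each of the 34 members, with the CCl4 library on the x axis and the authors' pooled CCl4 counts less that library on the y axis; the dashed line marks equal values and both axes share the Oil library. C4a and Cd55 lie left of 0 and above 0, at -1.02 and 0.46 and at -0.92 and 0.39, while C1q, C3ar1 and C5ar1 lie above the line.

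Of 26 further complement genes, 24 were found. Between CD and HFD 2 were called higher, Itgax (18 and 57 counts, log2 ratio 1.48) and Cd59b (15 and 48 counts, 1.47), and none lower, of 23 tested, beside the 2.92% of all genes called higher and 2.46% lower. Between Oil and CCl4 3 of 22 were called higher and 1 lower, beside 4.76% and 2.41% of all genes. The 3 are the chains of complement receptors 3 and 4, which take up particles coated with C3 fragments. Itgam had 15 counts in Oil and 62 in CCl4, Itgax 12 and 78, and Itgb2 41 and 147. In CD the counts were 63, 18 and 195, so only Itgax was lower in CD than in CCl4.

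The one further gene called lower was Susd4, an inhibitor of the C3 convertase. It had 364 counts in CD, 483 in HFD, 590 in JT003-HFD, 238 in Oil, 8 in CCl4 and 7 in JT003-Fibrosis. CCl4 over Oil was at -4.84, and both CCl4-treated libraries were low. None of the further genes was called with JT003 in either model, of 23 tested in each, beside 0.743% higher and 0.883% lower of all genes in the diet model and 1.91% and 2.5% in the CCl4 model, so that the absence of calls is not a result about these genes.

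The control pair was set beside these values. Oil and CD belong to models of unlike length (6 weeks of injections, 16 weeks of diet), so their mice may differ in age. They also differ in handling and are not replicates, but neither had the diet or CCl4. The median absolute log2 ratio of the 34 members was 0.41 for Oil over CD, against 0.26 for HFD over CD, 0.16 for JT003-HFD over HFD, 0.41 for CCl4 over Oil and 0.21 for JT003-Fibrosis over CCl4. For the 23 hepatocyte-made members alone these were 0.25, 0.29, 0.13, 0.33 and 0.14. CCl4 over Oil and Oil over CD share the Oil library, so these medians are not independent of each other. C4a in HFD, at 3.78, exceeded the 1.39 of the control pair. Cfd was at 6.76 in HFD over CD and at 5.58 in Oil over CD, both resting on 2 counts in CD.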

How the data were processed

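Total RNA of mouse liver was sequenced, 1 library per condition. Per the labels, the submitters' processing notes list HISAT, Bowtie2 and RSEM and the mouse build mm9, without versions or roles. For each gene and library, the authors deposited an expected count, without normalization, and FPKM, normalized for transcript length and for the reads of the library. Between 69.9% and 70.9% of the expected counts were whole. Counts were rounded, and 1 row without a gene identifier in each of 3 libraries (at most 0.00024% of counts) was left out. Of 4 deposited comparison tables, the authors' fold changes and p-values and 7 expression columns were not used; the pooled CCl4 column of expected counts was an alternative (24 genes lay below their count in the CCl4 library, by at most 0.99).

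Library sizes were scaled by TMM (edgeR 4.0.16 in R 4.3.3), using the 3 libraries of each model, or the libraries of an added pair. Genes with at least 1 read were tested by scipy 1.17.1, with an exact binomial test (two-sided, conditional on the summed counts) and Benjamini-Hochberg adjustment over all genes; the procedure was tested on simulated data. Values for all libraries are given for called members and the member of highest mean FPKM in each role. Others named with values were chosen after their values were seen. The members and lists were chosen with earlier results of these data known. Alternatives were total reads, DESeq2 1.42.0 size factors, count filters, other thresholds and prior counts, FPKM ratios, edgeR's exact test with an assumed variation, and pooled counts. The pooled counts less the CCl4 library, CD as control, and both together were added after seeing the data. RefSeq sequences are from GRCm38.p6, not the build of the files, and all 34 symbols matched its gene table. Plots were made with matplotlib 3.10.9 and tables with pandas 2.3.3 in Python 3.11.15.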

Additional observations from a re-analysis of the deposited data

Results flagged for a closer look

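For 3 members the log2 ratio with JT003 had opposite signs in the models and differed by more than 1. With 1 library per condition this difference was not tested. C4a was at -0.13 in the diet model and 1.22 in the CCl4 model, a difference of 1.35, and its sign in the CCl4 model turned to -0.26 with the pooled counts less the CCl4 library. Masp1 was at 0.31 and -0.81, a difference of -1.12. C3ar1 was at 0.62 and -0.49, a difference of -1.12. For Masp1 and C3ar1 the negative ratio in the CCl4 model was also seen over the pooled counts less the CCl4 library, at -1.496 and -1.28.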

How the results depend on the processing

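No paired analysis was possible because each condition has 1 library. Without the threshold on the ratio, members called higher and lower numbered 15 and 7 for HFD over CD, 12 and 6 for JT003-HFD over HFD, 15 and 12 for CCl4 over Oil, and 12 and 11 for JT003-Fibrosis over CCl4. At a ratio of at least 1.5 there were 4 and 1 for HFD over CD, 1 higher for JT003-HFD, 7 higher and 5 lower for CCl4, and 3 and 2 for JT003-Fibrosis. The shares of all genes at these cuts were not counted, so the numbers show only how the calls depend on the cut. With an assumed coefficient of variation of 0.2 or 0.4, edgeR's exact test called 0 lower for JT003-HFD, 0 higher and 1 lower for CCl4 and 0 higher for JT003-Fibrosis, and at 0.4 it called 1 higher for HFD. CCl4 over Oil had 1 lower with total reads, with FPKM plus 1 or 0.1, and with either set of pooled counts, and 2 higher with CD as the control. JT003-Fibrosis had 0 higher with FPKM plus 1 and with either set of pooled counts, 3 lower with either set (Masp1, C3ar1 and C5ar1), and 1 lower with FPKM plus 0.1 (Cfd, at 0 and 2 counts).

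Among called ratios, signs turned in 8 cases. C4a in CCl4 over Oil became 0.13 with the pooled counts, 0.46 without the CCl4 library in them and 0.37 against CD, 1.82 with both changes, and with JT003 it became -0.26. Cfd became 1.39 with both changes, at 17 and 2 counts. C1qb and C1qc became -0.20 and -0.031 against CD. Total reads moved the members' ratios by a median of 0.12 in HFD over CD and 0.23 in CCl4 over Oil, and 30 of 34 kept their sign in each. In CCl4 over Oil, called or not, 29 of 34 kept it with either set of pooled counts, 20 with CD as the control and 25 with both changes, and with JT003 24 and 23 of 34 kept it with the pooled counts and those less the CCl4 library. Members below about 100 counts (C3ar1, C5ar1 and Cd55) are limited by counting error, and for all members the spread between mice is unknown.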
